A study of Mus musculus with 4 samples.

Results

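A set of 6 miRNA names on a mouse miRNA array stands for small RNAs made without cutting by Drosha, the nuclear enzyme that releases most miRNA hairpins from their primary transcripts. They are mmu-miR-1224, mmu-miR-877 and mmu-miR-702 (mirtrons), mmu-miR-320 and mmu-miR-484 (hairpins made straight from short transcripts), and mmu-miR-720 (a piece of a tRNA that was once listed as a miRNA). The 6 names were chosen by this known origin, but with earlier results of these data known. They are 6 of the 567 mouse names on the array. Detection above background was flagged for 4 of the 6 on at least 1 array, against 214 of all 567.

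The arrays came from B104 neuroblastoma cells, 2 from mock-transfected control cells and 2 from cells transfected with 20 nM of siRNA against RBM3, all harvested after 48 h. The protein RBM3 binds RNA and is induced by cold, and the study asked how its loss changes miRNA levels. The control cells received no scrambled siRNA, the line is clonal, RBM3 itself is not on a miRNA array, and the labels do not say whether replicates were separate cultures, so p-values measure only the spread between these arrays. A figure legend of the study speaks of repeated experiments used for the profiling, more per group than the 2 arrays here. The methods cite the line with work on rat cell lines while the labels give mouse, and the names used here are those of the mouse array.

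In the usual route Drosha cuts a hairpin out of a long primary transcript and Dicer then trims the hairpin to the mature miRNA. A mirtron skips the first cut, because its hairpin is a short intron that the spliceosome excises and a debranching enzyme opens. The precursors of miR-320 and miR-484 also skip it, since RNA polymerase II makes them as short capped transcripts that fold directly, and tRNA fragments come from cleavage of tRNA by other nucleases.

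The precursor sequences bear on this origin, and those of the mirtrons whose signal changed are printed first. RefSeq's miRNA entries (build GRCm38.p6) held hairpins for 4 of the 6 members. The hairpins of miR-1224 and miR-877 run from a GU to an AG, the letters that end a typical intron, which stand in capitals here.
Mir1224: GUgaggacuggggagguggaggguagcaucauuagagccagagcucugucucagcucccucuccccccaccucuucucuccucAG
Mir877: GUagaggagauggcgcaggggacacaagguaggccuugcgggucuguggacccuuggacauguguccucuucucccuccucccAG
Mir1224 lies at chr16:20604452-20604536 on the plus strand inside Vwa5b2, and Mir877 at chr17:35960730-35960814 on the minus strand inside Abcf1, a gene for an ATP-binding protein that acts in translation initiation. Of 1005 hairpins in the table, 30 (2.99%) start with GU and end with AG. Mir702, inside Plod3, a gene for a collagen-modifying enzyme, is listed as a longer hairpin of 109 bases whose 5′ arm starts at base 10. Mir484 and Mir320 lie inside no protein-coding gene, and the nearest ones are Marf1 and Polr3d, the latter a gene for a subunit of RNA polymerase III.

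The mature sequences, with the seed (bases 2 to 8, which pairs with targets) in capitals, are given to show that no seed recurs among them.
mmu-miR-1224-5p: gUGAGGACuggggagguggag
mmu-miR-877-5p: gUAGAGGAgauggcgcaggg
mmu-miR-702-5p: gUGAGUGGggugguuggcaug
mmu-miR-702-3p: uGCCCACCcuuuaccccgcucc
mmu-miR-484: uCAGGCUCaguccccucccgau
The array names no arm. The 5′ arm is printed for miR-1224 because the oligonucleotide listed for its Northern probe carries that arm, and for miR-877 because the array lists the other arm apart as miR-877*. For miR-702 the arm on the array is not given in the sources used here, so both are shown. The 5′ arms of the 3 mirtrons are rich in G, with 13 of 21 bases in miR-1224-5p, 11 of 20 in miR-877-5p and 12 of 21 in miR-702-5p, against 4 of 22 in miR-484. A comparison with the composition of the other detected miRNAs was void, since 24 of 130 names (18.5%) matched a mature entry exactly.

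Signals fell for most miRNAs on the RBM3 siRNA arrays, and every member is to be read against that background. The 130 miRNAs detected on every array had median signals of 375 and 421 in control and 94.2 and 92.4 in siRNA cells. The total signal of a miRNA (in arbitrary units, background subtracted) sums its probes and is used here with no scaling unless stated. All 6 positive control names on the array were also dimmer on the siRNA arrays, by log2 differences between -1.57 and -0.52, and the part of labelling or input in the fall was not tested. Of the marker lists, 4 of 9 neural names (miR-9, miR-9*, miR-128 and miR-125b-5p) were detected on every array, with miR-124 below 0 on all, as were 4 of 4 muscle names (miR-206, miR-1 and both miR-133 names). Neural signals summed to 5866 and 6697 on the control arrays against 700 and 642 on the siRNA arrays. Most of this sum was miR-125b-5p alone, at 4862 and 5584 against 521 and 460. The other neural names detected on every array were also lower on both siRNA arrays. Muscle signals summed to 10192 and 12735 against 4441 and 4591. No blood, liver, endothelial or epithelial marker was detected. Fewer cells of a type and less RNA per cell cannot be told apart here.

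**Figure D1:**
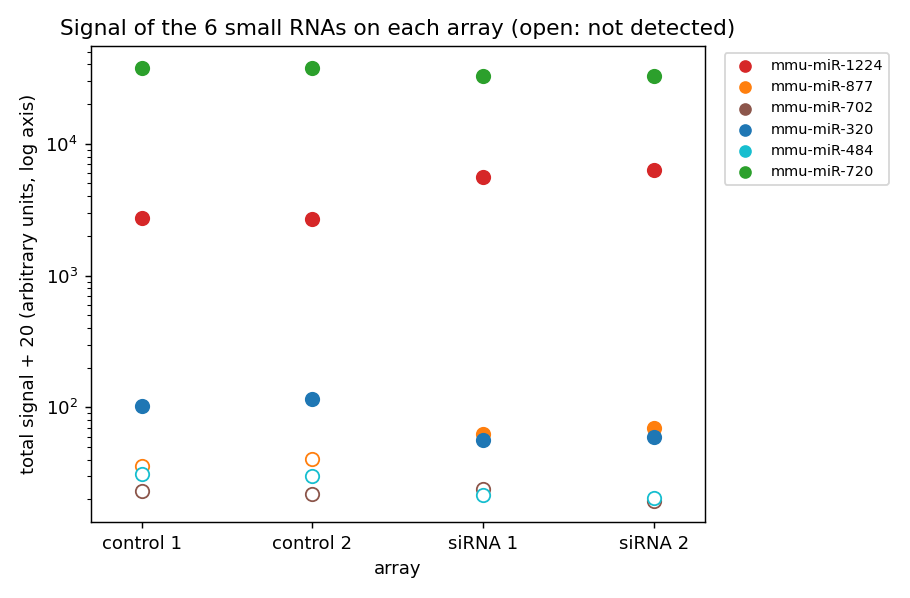
Total signal plus 20 (arbitrary units, log axis) of the 6 small RNAs on the 2 control and 2 siRNA arrays, 1 point per array, filled where the name was detected. The points of mmu-miR-1224 and mmu-miR-877 are higher on both siRNA arrays, those of mmu-miR-320 and mmu-miR-720 are lower, and mmu-miR-484 and mmu-miR-702 are open on every array.

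The mirtron miR-1224 rose. Its signal was 2714 and 2653 in control cells and 5598 and 6333 in siRNA cells, 2683 ± 43.0 against 5966 ± 520 (SD, n = 2 each). Both siRNA arrays lay above both control arrays, at 2.22 times the control level with no scaling. Over all 567 mouse names, 17.1% had both siRNA arrays above both control arrays and 46.4% had both below. In the test across miRNAs (limma on scale-normalized log2 of signal plus 20, replicate number as a block), the log2 change of miR-1224 was 1.43 (SE 0.11, adjusted p = 5.0e-08), and the test called 17.8% of the 214 tested miRNAs higher and 77.1% lower. With no scaling the change was 1.14 (adjusted p = 1.8e-14), and 16.4% were called higher and 78% lower. With equal 75th percentiles of the 130 miRNAs detected on every array it was 3.33 (adjusted p = 1.6e-50), and 34.6% were called higher and 17.3% lower. In the fits with no scaling and with equal percentiles, moderation gave every miRNA the same SE (0.14 and 0.16). Their p-values thus rest on a variance pooled over miRNAs and not on the spread of miR-1224 itself. In the scale-normalized fit, with 1 residual degree of freedom, SEs ran only from 0.099 to 0.20. Its p-values thus also rest in large part on the pooled variance. With each miRNA's own variance in place of the moderated one, miR-1224 did not pass (adjusted p = 0.093), and 2 arrays against 2 allow no permutation p under 0.333 (exact, two-sided).

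Each probe for miR-1224 gave the same picture. Its 4 probes, with 5 spots each per array, had siRNA to control ratios between 2.27 and 2.31, and for all 4 both siRNA arrays exceeded both control arrays. The spots of a probe varied by 1.79% to 5.13% of their mean, less than the difference between groups. No spot of miR-1224 was flagged as an outlier on any array. Of the 130 miRNAs detected on every array, 15 had both siRNA arrays above both control arrays, 114 had both below and 1 overlapped. Among the 16 of them with more control signal than miR-1224, none had both siRNA arrays above both control arrays, 15 had both below and 1 overlapped. By the log2 change of the fit with no scaling, which adds a fixed offset to each signal, miR-1224 had rank 2 of the 130. This rank depended on the offset. With no scaling and a floor of 0.5 in its place, miR-1224 changed by 1.15, against 1.27 for miR-135a* and 1.19 for miR-671-5p.

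**Figure D2:**
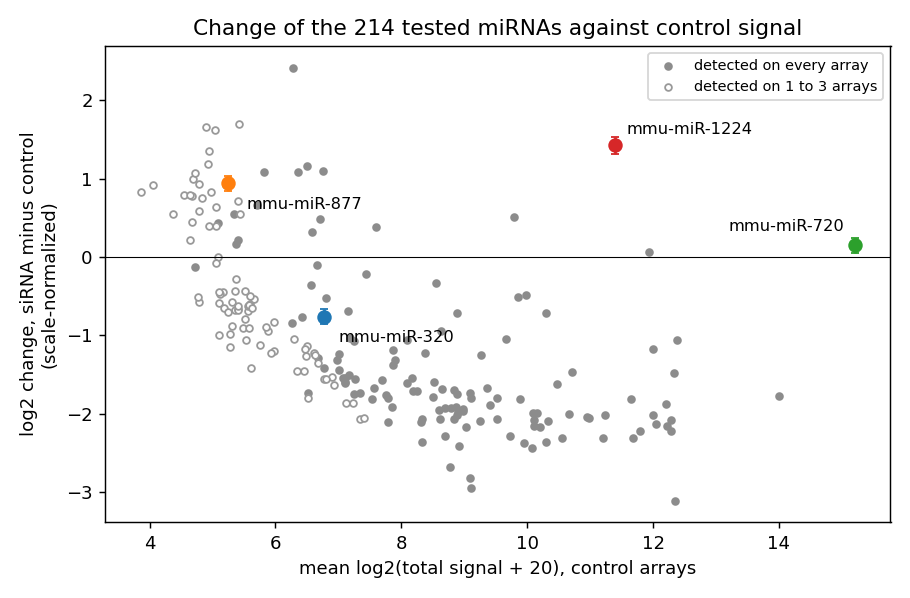
Log2 change (siRNA minus control, scale-normalized) of the 214 tested miRNAs against their mean log2 signal plus 20 on the control arrays, with the standard error for the 4 tested members. mmu-miR-1224, at 1.43, lies above the miRNAs of like control signal, most of which lie below 0, while mmu-miR-877, at 0.94, lies among dim miRNAs that range both above and below 0.

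The mirtron miR-877 was detected on both siRNA arrays only. Its signal was 15.7 and 20.5 in control cells, where it was not above background, and 43.2 and 49.8 on the siRNA arrays. The groups did not overlap, and the mean was 18.1 ± 3.41 against 46.5 ± 4.62 (SD, n = 2 each). Since the controls were not above background, the siRNA level was at least 2.59-fold higher by the means of log2 signals with no scaling and at least 1.92-fold higher on the scale-normalized log2(signal + 20) scale, the dim side taken as its own signal, which exceeded the lowest detected one. These bounds take the control signals at face value and do not count their errors, 4.83 on control 1 and 4.45 on control 2. The fit gave a log2 change of 0.94 (SE 0.10, adjusted p = 1.2e-06), which did not pass with its own variance (adjusted p = 0.052). The name entered the test only through the siRNA arrays, where it was high, so it had to differ to some extent, and its test is given as a description. Of the 214 tested miRNAs, 13 (6.07%) were likewise detected on both siRNA arrays and on no control array.

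All 4 probes of miR-877 were brighter on both siRNA arrays. Their siRNA to control ratios ran from 2.46 to 3.39. The spots of a probe varied by 18.8% to 84.2% of their mean on the control arrays and by 9.72% to 39.3% on the siRNA arrays, so the ratio is less certain than for miR-1224. The other arm, miR-877*, is the only other arm of a member's hairpin on the array. Its signal was 15.3, 11.1, 16.7 and 40.6 on control 1, control 2, siRNA 1 and siRNA 2, and it was detected on siRNA 2 alone, through which it entered the test, so its test too is given as a description. Its log2 change, against controls not above background, was 0.63 (SE 0.17, adjusted p = 0.0035), but it was 0.27 without siRNA 2, and without the detection filter it did not pass (adjusted p = 0.15). Without control 1 or control 2, in fits without the block, it did not pass either, at 0.75 (adjusted p = 0.089) and 0.52 (adjusted p = 0.20).

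The mirtron miR-702 was not detected. Its signal was 3.11, 1.89, 4.12 and -0.38 on the same arrays in that order, and the groups overlapped, at signals where no level can be read. The mirtrons therefore gave 1 rise among names measured in both groups, 1 gain of detection and 1 name below background throughout.

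**Figure D3:**
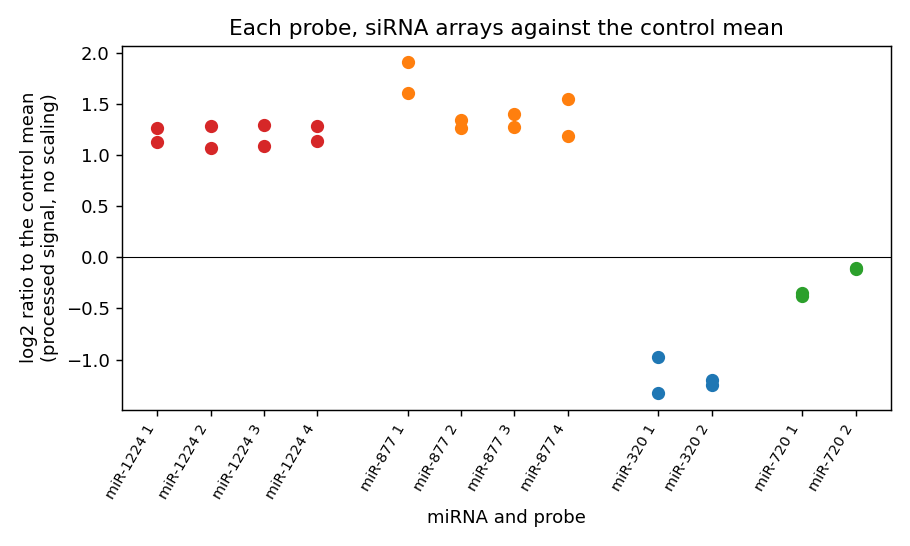
Log2 ratio of each probe's mean signal on each siRNA array (2 points) to the mean of the control arrays, with no scaling, for the 4 detected members. The 4 probes of miR-1224 and of miR-877 lie above 0, and the 2 probes of miR-320 and of miR-720 lie below 0.

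The capped-precursor miRNA miR-320 fell with no scaling. Its signal was 83.1 and 95.1 in control cells and 36.1 and 40.1 in siRNA cells, 89.1 ± 8.47 against 38.1 ± 2.81 (SD, n = 2 each). It was detected on all 4 arrays, the groups did not overlap, and the control level was 2.34 times the siRNA level. Both probes were lower on both siRNA arrays, with siRNA to control ratios of 0.43 and 0.45. The scale-normalized log2 change was -0.76 (SE 0.10, adjusted p = 9.4e-06), a smaller fall than the median of -1.70 over the 130 miRNAs detected on every array. Its direction depended on the scaling: with no scaling it was -0.91 (adjusted p = 4.6e-10), with the positive controls made equal -0.13 (adjusted p = 0.36), and with equal 75th percentiles of the detected miRNAs 0.72 (adjusted p = 4.0e-05).

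The other capped-precursor miRNA, miR-484, was not detected on any array. Its signal was 11.5 and 10.2 in control cells and 1.51 and 0.43 in siRNA cells. The groups did not overlap, but all 4 values lay below detection, so no fold or test is given.

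The tRNA fragment miR-720 gave the highest signal of all names on every array. Its signal was 37685 and 37874 in control cells and 32743 and 32650 in siRNA cells, 37779 ± 133 against 32697 ± 65.6 (SD, n = 2 each). The groups did not overlap, with the siRNA level at 0.87 times the control level. Its probes differed in how far they fell, with siRNA to control ratios of 0.78 and 0.93, each on 10 spots per array. All 10 spots of the second probe were read on every array from the low-gain scan of the scanner and scaled up. The scale-normalized log2 change was 0.15 (SE 0.10, adjusted p = 0.17) and that with no scaling was -0.21 (SE 0.14, adjusted p = 0.14), and neither passed. With equal 75th percentiles of the detected miRNAs it was 1.99 (adjusted p = 1.7e-25).

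**Figure D4:**
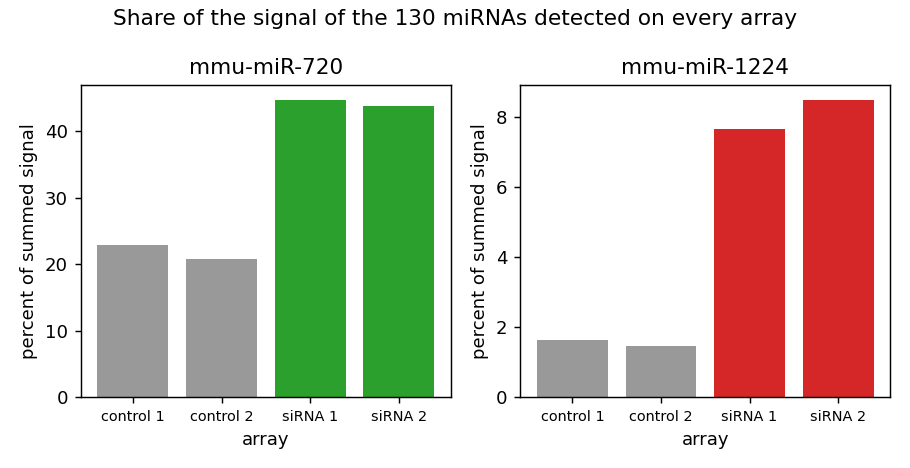
Percent of the signal summed over the 130 miRNAs detected on every array that came from mmu-miR-720 (left) and mmu-miR-1224 (right), 1 bar per array. The share of mmu-miR-720 is 22.9% and 20.9% in control cells and 44.7% and 43.8% in siRNA cells, and that of mmu-miR-1224 is 1.65% and 1.46% against 7.65% and 8.49%.

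Shares within an array need no scaling, and they set the members against the fall of the rest. The 130 miRNAs detected on every array summed to 164582 and 181628 in control cells and to 73172 and 74559 in siRNA cells. The share of miR-720 in this sum went from 22.9% and 20.9% to 44.7% and 43.8%, and that of miR-1224 from 1.65% and 1.46% to 7.65% and 8.49%. The share of miR-320 was 0.050% and 0.052% against 0.049% and 0.054%, and the groups overlapped. Probes differ in brightness, so only the change of a share between arrays can be read, and a higher share shows unequal change and not a rise.

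With the fixed offset added to each signal, the changes of the tested members came in the same order with scale normalization and with no scaling. On the scale-normalized values the changes ran from miR-1224 (1.43) through miR-877 (0.94) and miR-720 (0.15) to miR-320 (-0.76), against a median of -1.22 over the 214 tested miRNAs. With no scaling they ran from 1.14 through 0.80 and -0.21 to -0.91, against a median of -1.37. All 4 values lay above the median of the 130 miRNAs detected on every array under both, by 0.94 to 3.13 with scale normalization and by 0.97 to 3.02 with no scaling. Over all 6 members, of which 2 were below detection on every array, with no detection filter the median change was 0.10, beside 0.01 over all 567 names, most of which were not detected. miR-1224 and miR-877 had positive changes under every scaling tried. Which of them changed more depended on the processing. With no scaling and a floor of 0.5 in place of the offset, miR-877 changed by 1.37 and miR-1224 by 1.15. With the brightest probe and the 75th percentile, miR-877 changed by 3.59 and miR-1224 by 3.45. Under the other scalings miR-1224 had the larger change.

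**Figure D5:**
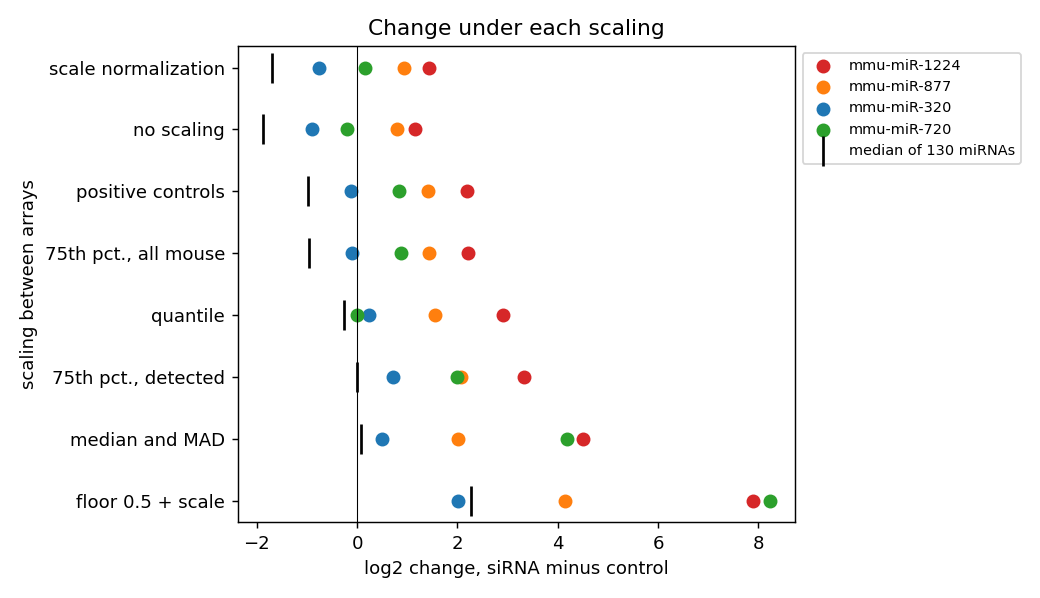
Log2 change (siRNA minus control) of the 4 tested members under 8 ways of scaling the arrays, 1 point per member, with the median of the 130 miRNAs detected on every array as a black bar. mmu-miR-1224 and mmu-miR-877 lie above 0 in each row, mmu-miR-320 and mmu-miR-720 change side, and mmu-miR-320 falls below the bar only with a floor of 0.5 and scale normalization.

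The miRNAs whose pattern over the 4 arrays was most like each member's were found among the other 129 detected on every array, by the distance between centred log2 values with no scaling. Because they were picked by these same values, their likeness in direction follows from the choice. Their tests are given as a description and add no support. For miR-1224 they were miR-671-5p (distance 0.15), with signals of 69.6, 71.0, 147 and 175 on control 1, control 2, siRNA 1 and siRNA 2, and miR-135a* (0.22), with 36.9, 35.6, 84.9 and 90.4. Both rose, by log2 changes of 1.16 (adjusted p = 2.9e-07) and 1.09 (adjusted p = 3.7e-07). For miR-320 they were miR-322 (0.044) and miR-1 (0.092), which fell by 0.72 (adjusted p = 1.7e-05) and 0.71 (adjusted p = 1.9e-05) on the log2 scale but, like miR-320, turned to 1.15 and 1.21 with equal 75th percentiles of the detected miRNAs. For miR-720 they were miR-21* (0.071) and miR-322* (0.18), with changes of -0.10 (adjusted p = 0.32) and -0.12 (adjusted p = 0.30), and 1.45 and 0.14 with those percentiles equal. The signal of miR-322* was only 4.82, 7.93, 3.98 and 1.01 on control 1, control 2, siRNA 1 and siRNA 2. In fits without the block, its change was -0.22 without siRNA 1 and -0.02 without siRNA 2.

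Names that map to the 45S pre-ribosomal RNA, another source of small RNA outside the Drosha route, were listed beside the members. Of miR-712, miR-712*, miR-714 and miR-715, miR-712 alone was detected, on all 4 arrays. Its signal was 22.0 and 22.9 in control cells and 25.8 and 24.2 in siRNA cells, which did not overlap. The errors of these signals ran from 4.06 to 5.20. For 2 of its 4 probes, the brightest among them, the groups overlapped, and the other 2 were below 0 on both control arrays. Its log2 change of 0.21 did not pass (SE 0.10, adjusted p = 0.054), but it was 1.27 (adjusted p = 9.7e-13) with equal 75th percentiles of the detected miRNAs. Without siRNA 2, in a fit that also had no block, it was 0.24. Leaving out the block alone changed the call, since miR-712 then passed (adjusted p = 0.020).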

How the data were processed

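RNA of B104 cells was hybridised to 4 one-colour Agilent mouse miRNA arrays on 1 slide. The authors extracted intensity values with Agilent Feature Extraction 10.1.1.1: a background-subtracted signal per spot, and for each miRNA the total over its probes and a flag for detection. In the deposited value table this total intensity stands with 20 added, unscaled (equal within 2.3e-13), and the table served as an alternative. No spot was saturated.

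The 6 members and the lists were chosen with earlier results of these data known. Members were matched by exact name. Log2 of the total signal plus 20 was scale-normalized over 567 mouse miRNAs with limma 3.58.1 in R 4.3.3. The methods name scale normalization to equal median absolute deviations and no offset, whereas limma's function makes the arrays' medians of absolute log2 values equal. The offset was chosen knowing that a floor of 0.5 with this scaling turned most directions (131 higher, 19 lower), and that version is an alternative. The 214 miRNAs detected on at least 1 array were fitted (lmFit, eBayes) with replicate numbers as a block and with Benjamini-Hochberg adjustment at 0.05. The block follows the methods, where the fit is a paired one, although arrays of the same number deviated in opposite directions (correlation -0.387). With it 1 residual degree of freedom remains. Moderation gave all miRNAs the same SE with no scaling, equal 75th percentiles of the detected miRNAs, the positive controls or the filter on every array. The same held for both fits with a floor of 0.5 on the total signal and for each fit without an siRNA array. The detection filter admits names through either group. An offset of 20 understates changes of dim miRNAs. Named miRNAs were the members, the other arms of their hairpins, the 45S list and, for each member detected on every array, the 2 nearest by centred log2 values. Alternatives were other scalings, filters, floors, probe summaries, background correction (normexp, offset 50), fits without block or moderation, and each array left out. The fits with an array left out had no block. Tested on simulated data for 214 miRNAs, the fit called 20 of 20 changed by 1 on the log2 scale, 14 of 20 changed by 0.5 and 0 of 154 unchanged. The simulated noise was of equal size for all miRNAs, with no fall of whole arrays and no scaling step. It therefore tests the fit only and not the choice of scaling. Only 4 arrays limit the precision. Viral names (10) were left out. Sequences are RefSeq's (GRCm38.p6), and the array annotation is mm9, so no array coordinates are given.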

Additional observations from a re-analysis of the deposited data

How the results depend on the processing

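The changes of miR-1224 and miR-877 kept their sign under every alternative that gave a value, and both lost the call only with no moderation (1.43, adjusted p = 0.093, and 0.94, adjusted p = 0.052). miR-320 turned with equal 75th percentiles of the detected miRNAs (0.72), quantile normalization (0.24), equal median and median absolute deviation (0.50), a floor of 0.5 with scale normalization (2.01) and the brightest probe (1.03). It no longer passed with the 75th percentile of all mouse miRNAs (-0.11), the positive controls (-0.13) and normexp with quantile normalization (-0.18). miR-720 turned with no scaling (-0.21) and with the floor and no scaling (-0.21), neither passing. It passed at 1.99 with the 75th percentile of the detected miRNAs, 0.87 with that of all mouse miRNAs, 0.84 with the positive controls, 4.18 with the median and median absolute deviation, 8.23 with the floor and scale normalization and 2.15 with the brightest probe. Quantile normalization fixes it at 0.00, as the brightest name. The causes were not tested.

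Members called higher numbered 2, and 4 with the 75th percentile over detected miRNAs, with the median and median absolute deviation, the floor with scale normalization and the brightest probe. They numbered 3 with the 75th percentile of all mouse miRNAs, the positive controls and quantile normalization, 1 among miRNAs detected on every array, where miR-877 was not tested, and 0 with no moderation, where miR-320 was still called lower. Members called lower numbered 1, and 0 under all 8 settings named above for miR-320, and 2 without the detection filter, where miR-484, below detection on every array, was added.

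Over all 214 tested miRNAs, beside which the counts of members are to be read, the calls were 38 higher and 165 lower. They were 74 and 37 with the 75th percentile of the detected miRNAs, 51 and 103 with quantile normalization, 96 and 54 with the median and median absolute deviation, 131 and 19 with the floor and scale normalization, 83 and 21 with the brightest probe, and 51 and 103 with normexp. The 75th percentile of all mouse miRNAs gave 50 and 149, and the positive controls 50 and 145. The filter on every array gave 14 and 111 of 130, and no detection filter 52 and 176 of 567. limma with no moderation gave 0 and 10, with 138 at an unadjusted p under 0.05. Without the replicate block they were 39 and 164, and the block changed no call of a member. With the pairing crossed, an alternative added after seeing the data, they were 40 and 164. Leaving out each array in turn gave 35 to 40 higher and 161 to 167 lower, miR-1224 at 1.34 to 1.51, miR-877 at 0.87 to 1.01, miR-320 at -0.81 to -0.71 and miR-720 at 0.08 to 0.22. Signals near background limit miR-484, miR-702 and the control level of miR-877.

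Among the other names, miR-322, miR-1, miR-21* and miR-322* turned, in that order, to 1.15, 1.21, 1.45 and 0.14 with the 75th percentile of the detected miRNAs, to 1.21, 1.65, 1.23 and 0.60 with the median and median absolute deviation, and to 1.31, 1.31, 1.91 and 1.82 with the brightest probe. miR-322, miR-1 and miR-21* turned to 0.10, 0.11 and 0.58 with the 75th percentile of all mouse miRNAs, 0.074, 0.087 and 0.57 with the positive controls and 3.66, 4.49 and 3.12 with the floor and scale normalization. They turned to 1.04, 0.98 and 1.01 with quantile normalization and to 0.56, 0.91 and 0.94 with normexp, where miR-322* turned to 0.077. miR-322* was called with the floor and no scaling (-1.62), and was -0.22 to -0.02 with an array left out. miR-712, not called at 0.21, passed under 12 alternatives, among them no replicate block (adjusted p = 0.020), the crossed pairing (0.021) and the filter on every array (0.028). miR-877* lost its call with quantile normalization (1.05), without the detection filter and with no moderation (0.63 in both), and was 0.27 to 0.997 with an array left out.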
